A study of Mus musculus with 8 samples.

Results

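The 9 genes described here encode 6 STAT transcription factors (*Stat2*, *Stat3*, *Stat4*, *Stat5a*, *Stat5b*, *Stat6*) and 3 JAK kinases (*Jak1*, *Jak2*, *Jak3*). They were chosen by gene name, and all 9 of the 22520 rows of the deposited table that carry these names were found and passed the filter on low values. The libraries came from mouse splenic CD8+ T cells kept under stimulation with anti-CD3, anti-CD28 and IL-2 in culture. From day 3 to day 6, 4 cultures received 40 µM DADA (diisopropylamine dichloroacetate, an inhibitor of pyruvate dehydrogenase kinase) and 4 received an equal volume of DMSO, and RNA was taken on day 6. The labels file the DMSO libraries under a genotype of control and the DADA libraries under model, but the treatment is the difference that the protocol describes. The 4 libraries of a group are called biological replicates, and the sources used here do not say whether each came from a separate mouse, so p-values measure the spread between these libraries.

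Cytokine receptors have no kinase activity of their own and carry JAK kinases on their inner tails. When a cytokine brings the receptor chains together, the kinases phosphorylate each other and the tails, STAT proteins dock there, are phosphorylated in turn, pair up and move to the nucleus to switch on target genes. In CD8+ T cells, IL-2, IL-7, IL-15 and IL-21 act through JAK1 and JAK3, IL-12 through JAK2 and STAT4, IL-4 through STAT6, and type I interferon uses STAT2. These steps run on phosphorylation of protein, and the values below are levels of mRNA only.

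Levels are given as FPKM, fragment counts scaled to transcript length and library size, which can be compared between genes. Summed over all rows, FPKM ranged from 450473 to 456939 in the DMSO libraries and from 438299 to 449480 in the DADA libraries. The files give no read counts. From the steps between low values, depth was estimated at 13760000 to 16260000 fragments in DMSO and 15240000 to 19000000 in DADA. These figures are rough, because only 33.3% to 40.8% of the low values lay within 0.1 of a whole number of fragments. Where more than 1 depth suited the steps the lower was kept, so the true depth may be higher. All 6 markers of CD8+ T cells reached 1 FPKM, with a summed level of 737 to 745 in DMSO and 851.0 to 882 in DADA. Of the 2 CD4 T cell markers none reached 1 FPKM (summed 0.186 to 0.513 and 0.355 to 0.499), nor did any of the 5 myeloid markers (highest sums 0.0883 and 0.189, with *Csf1r* and *Adgre1* at 0 in every library). Natural killer and erythroid markers summed to at most 0.336. Of 4 B cell markers 1, *Cd79b*, reached 1 FPKM (summed 2.59 to 3.54 in DMSO and 2.36 to 3.09 in DADA). Of 3 dendritic cell markers 1, *Zbtb46*, did so, and their sum was 3.66 to 4.61 in DMSO and 1.89 to 2.48 in DADA. Only *Zbtb46* fell. *Flt3* was 0 in every DMSO library and at most 0.0464 FPKM in DADA, and *Xcr1* at most 0.0454 and 0.131 FPKM. The part of these differences in the results below was not tested. In bulk RNA, fewer cells of a kind and less RNA per cell cannot be told apart.

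In DADA-treated CD8+ T cells, *Stat2* was 2.73-fold, *Stat3* 2.19-fold and *Jak3* 1.85-fold as high as in DMSO. *Stat5a*, *Stat5b* and *Jak2* rose by 1.09- to 1.23-fold, *Jak1* fell, and *Stat4* and *Stat6* did not pass the test. In limma on log2(FPKM + 1) with Benjamini-Hochberg adjustment over all 10666 genes tested, 6 of the 9 genes were higher and 1 was lower at an adjusted p below 0.05. Of all genes tested, 30.9% were called higher and 35.3% lower. The values of the 4 DADA libraries lay above all 4 DMSO libraries for the same 6 genes and below them for 1, against 28.4% and 32.2% of all genes. 2 of the 9 were called higher by at least 1 on the log2 scale, against 3.56% of all genes.

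**Figure D1:**
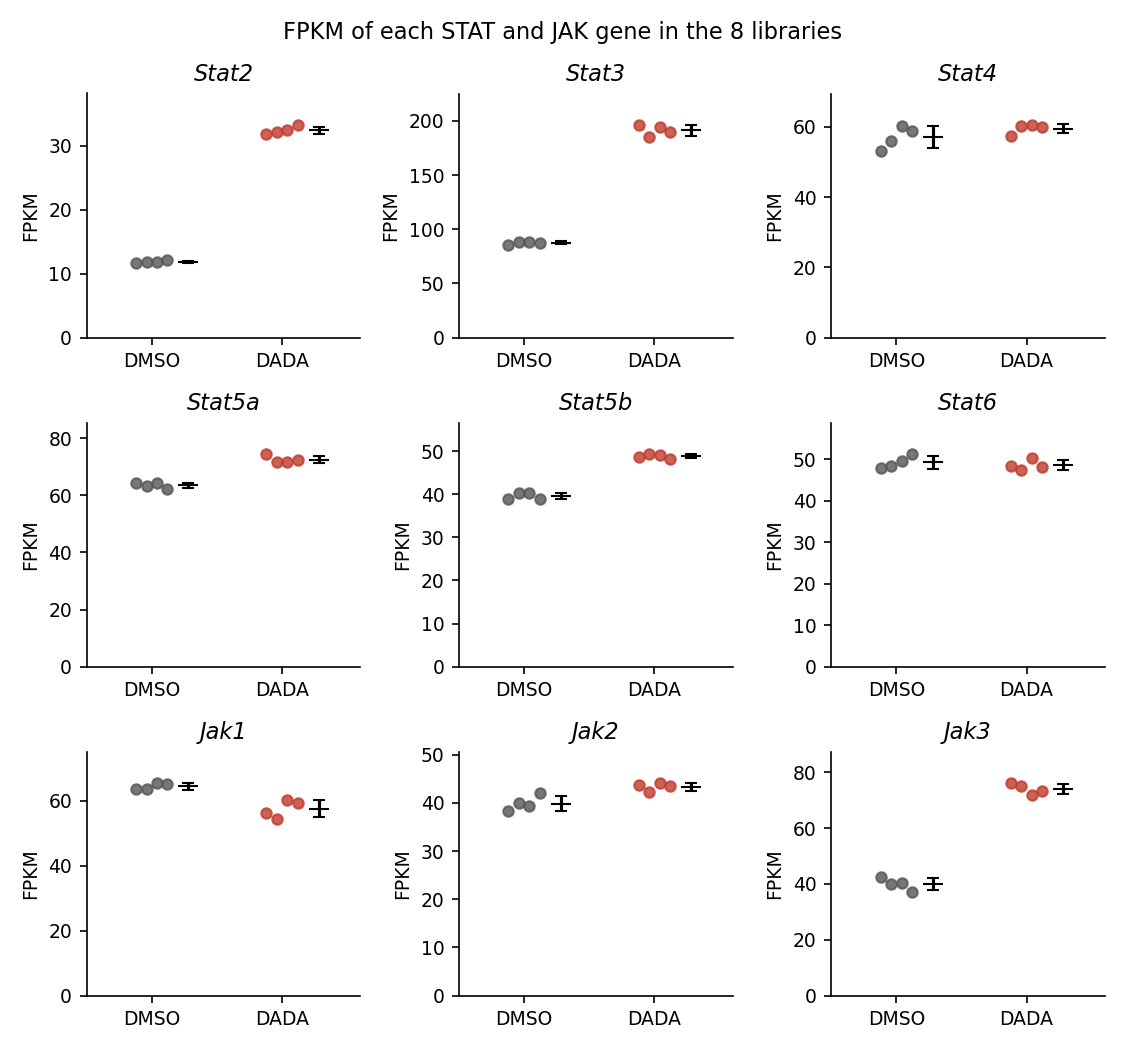
FPKM (vertical axes, each from 0) of the 9 genes in the 4 DMSO (grey) and 4 DADA (red) libraries, with 1 point per library and the mean ± SD beside them. The groups are apart for *Stat2*, *Stat3* and *Jak3*, closer but without overlap for *Stat5a*, *Stat5b*, *Jak1* and *Jak2*, and overlap for *Stat4* and *Stat6*.

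STAT2 is the STAT of the type I interferon response, where it works together with IRF9. *Stat2* (ENSMUSG00000040033) measured 11.7, 11.9, 11.8 and 12.1 FPKM in DMSO libraries 1 to 4, and 31.9, 32.1, 32.5 and 33.2 FPKM in DADA libraries 1 to 4. Every DADA library was far above every DMSO library, and within a group the libraries differed little. The mean rose from 11.9 ± 0.162 to 32.5 ± 0.576 FPKM (SD, n = 4 each), a ratio of 2.73. On the log2(FPKM + 1) scale the difference was 1.38 (SE 0.0269, 95% interval 1.32 to 1.44, limma adjusted p = 7.74e-11), higher than 98.1% of the genes tested. *Stat2* was nevertheless the lowest of the 9 genes in both groups.

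STAT3 carries the signals of IL-6, IL-10, IL-21 and related cytokines. *Stat3* (ENSMUSG00000004040) measured 85.4, 88.0, 88.6 and 87.5 FPKM in DMSO and 195.9, 185.1, 194.3 and 189.9 FPKM in DADA. It was the most abundant of the 9 genes in every library, and the lowest DADA value was above the highest DMSO value by more than the DMSO level itself. The mean went from 87.4 ± 1.37 to 191.3 ± 4.85 FPKM (SD, n = 4 each), a ratio of 2.19, and the log2 difference was 1.12 (SE 0.0240, 95% interval 1.07 to 1.18, limma adjusted p = 1.35e-10).

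STAT5A and STAT5B are closely related proteins that carry the signals of IL-2, IL-7 and IL-15. *Stat5a* (ENSMUSG00000004043) measured 64.4, 63.1, 64.2 and 62.3 FPKM in DMSO and 74.3, 71.8, 71.7 and 72.3 FPKM in DADA. *Stat5b* (ENSMUSG00000020919) measured 38.9, 40.2, 40.2 and 38.9 FPKM in DMSO and 48.6, 49.2, 49.0 and 48.3 FPKM in DADA. Both were higher in every DADA library than in any DMSO library, by much less than *Stat2* or *Stat3*. The log2 difference was 0.19 for *Stat5a* (SE 0.0223, limma adjusted p = 3.66e-05) and 0.30 for *Stat5b* (SE 0.0230, limma adjusted p = 1.67e-06).

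STAT4, which answers to IL-12, and STAT6, which answers to IL-4, did not pass the test. *Stat4* (ENSMUSG00000062939) measured 53.2, 56.0, 60.3 and 58.8 FPKM in DMSO and 57.4, 60.1, 60.4 and 60.1 FPKM in DADA. *Stat6* (ENSMUSG00000002147) measured 47.8, 48.4, 49.6 and 51.2 FPKM in DMSO and 48.4, 47.3, 50.2 and 48.2 FPKM in DADA. The groups overlapped for both genes. The log2 difference of *Stat4* was 0.06 (95% interval -0.03 to 0.15, limma adjusted p = 0.186), and that of *Stat6* was -0.02 (95% interval -0.09 to 0.05, limma adjusted p = 0.577).

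JAK1 sits on most of the receptors named above, JAK2 on those of IL-12 and interferon gamma among others, and JAK3 on the common gamma chain that the IL-2 family of receptors shares. *Jak3* (ENSMUSG00000031805) measured 42.4, 40.0, 40.2 and 37.1 FPKM in DMSO and 76.0, 75.1, 72.0 and 73.1 FPKM in DADA. The DADA libraries were all well above the DMSO libraries, and the mean rose from 39.9 ± 2.16 to 74.1 ± 1.84 FPKM (SD, n = 4 each). The log2 difference was 0.88 (SE 0.0384, 95% interval 0.79 to 0.96, limma adjusted p = 2.60e-08).

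*Jak1* (ENSMUSG00000028530) moved the other way, with 63.5, 63.7, 65.4 and 65.3 FPKM in DMSO and 56.3, 54.4, 60.4 and 59.3 FPKM in DADA. All DADA values were below all DMSO values, and the log2 difference was -0.16 (SE 0.0335, 95% interval -0.24 to -0.09, limma adjusted p = 0.00178). *Jak2* (ENSMUSG00000024789) measured 38.2, 39.9, 39.3 and 42.0 FPKM in DMSO and 43.8, 42.2, 44.1 and 43.5 FPKM in DADA. The groups of *Jak2* did not overlap, but the highest DMSO library and the lowest DADA library were almost level. Its log2 difference was 0.12 (SE 0.0314, 95% interval 0.05 to 0.19, limma adjusted p = 0.00685).

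**Figure D2:**
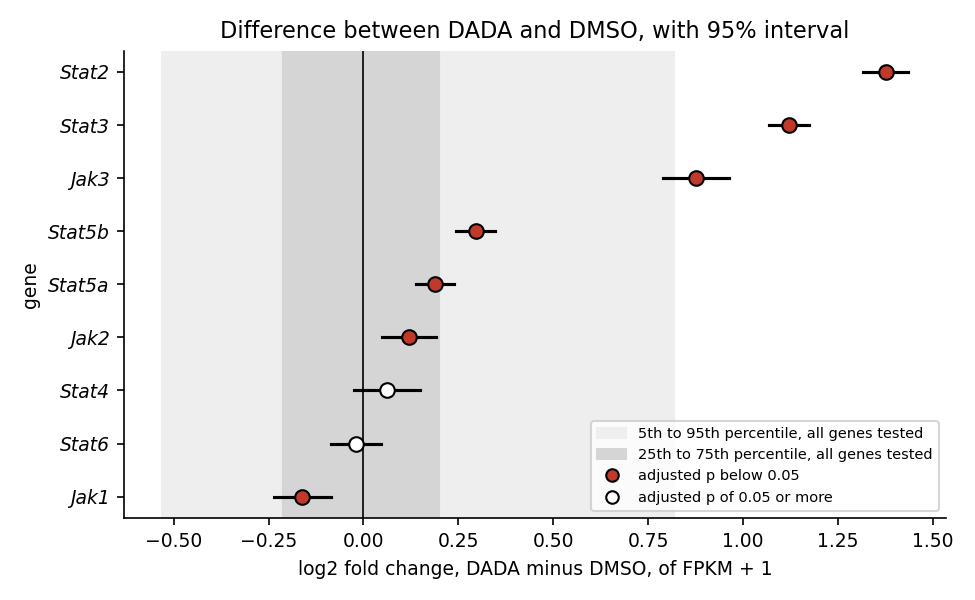
Difference between DADA and DMSO on the log2(FPKM + 1) scale (horizontal axis) for each of the 9 genes, with its 95% interval from limma and open circles for genes that did not pass the test. The shaded bands hold the 25th to 75th and the 5th to 95th percentiles of all genes tested (-0.21 to 0.20 and -0.53 to 0.82), and *Stat2*, *Stat3* and *Jak3* lie to the right of both.

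Each gene was also compared on its own by an exact permutation test (two-sided), which has 70 ways of dividing the 8 libraries and cannot give a p below 0.0286. Each of the 7 called genes reached that value, while the exact permutation p was 0.229 for *Stat4* and 0.543 for *Stat6*.

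The order of the genes by FPKM shifted with DADA. In DMSO, *Stat3* came first, followed by *Jak1* and *Stat5a*, then *Stat4*, *Stat6*, then *Jak3*, *Jak2* and *Stat5b*, and *Stat2* last. The ranges of *Jak1* and *Stat5a* overlapped, as did those of neighbours among *Jak3*, *Jak2* and *Stat5b*. In DADA, *Stat3* stayed first and *Stat2* last, while *Jak3* stood level with *Stat5a* in the place after *Stat3*. *Stat4* and *Jak1* overlapped next, then *Stat5b* and *Stat6*, with *Jak2* below them.

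Summed over the 6 STAT genes, the level was 308.6 ± 5.68 FPKM in DMSO and 453.1 ± 5.59 FPKM in DADA (SD, n = 4 each). *Stat3* made up 28.3% of that sum in DMSO and 42.2% in DADA, and *Stat2* 3.85% and 7.16%. The shares of the other 4 were smaller in DADA, such as 18.5% and 13.1% for *Stat4*, although its own level overlapped between the groups. The 3 JAK genes summed to 144.2 ± 0.532 FPKM in DMSO and 175.0 ± 2.20 FPKM in DADA. *Jak1* was 44.7% of this sum in DMSO and 32.9% in DADA, and *Jak3* 27.7% and 42.3%, so that the most abundant of the 3 kinases was *Jak1* in DMSO and *Jak3* in DADA. The shares are a description with no test.

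Ratios within a library do not depend on its scaling. For 5 pairs of genes the log2 ratio was compared between the groups by the exact permutation test, with Benjamini-Hochberg adjustment over the 5 pairs. *Jak1* over *Jak3* changed most, from 1.62 ± 0.108 in DMSO to 0.778 ± 0.0547 in DADA (log2 difference -1.06, SE 0.0696, exact p = 0.0286, adjusted p = 0.0357). *Stat3* over *Stat5b* went from 2.21 ± 0.0261 to 3.92 ± 0.116 (log2 difference 0.83, exact p = 0.0286, adjusted p = 0.0357). *Jak1* over *Jak2* was 1.62 ± 0.0516 in DMSO and 1.33 ± 0.0451 in DADA (log2 difference -0.29, exact p = 0.0286, adjusted p = 0.0357). *Stat5a* over *Stat5b* shifted less, from 1.61 ± 0.0357 to 1.49 ± 0.0336 (log2 difference -0.11, exact p = 0.0286, adjusted p = 0.0357), and without DMSO replicate 1 this difference did not pass (-0.10, exact p = 0.0571). *Stat4* over *Stat6* was 1.16 ± 0.0423 and 1.23 ± 0.0389, which did not pass (log2 difference 0.08, exact p = 0.0857, adjusted p = 0.0857).

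**Figure D3:**
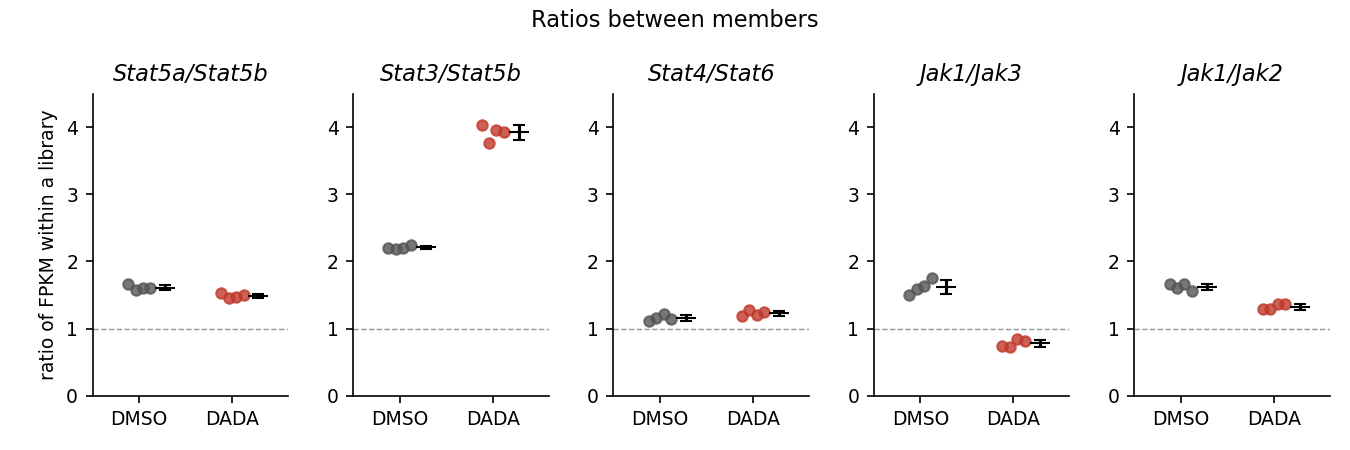
Ratio of FPKM within a library (vertical axis, from 0) for 5 pairs of genes in the 4 DMSO (grey) and 4 DADA (red) libraries, with the mean ± SD and a dashed line at a ratio of 1. *Jak1* over *Jak3* is above 1 in every DMSO library and below 1 in every DADA library, and *Stat3* over *Stat5b* rises from 2.21 to 3.92.

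*Stat5b*, *Stat5a* and *Stat3* lie next to each other on mouse chromosome 11, and the coding sequences of *Stat5a* and *Stat5b* are so alike that fragments can match both. In the GENCODE M21 annotation of GRCm38, which is not the build of the deposited files, their coding sequences of 2379 and 2358 bases share an unbroken identical run of 324 bases. The pair of windows below shows why the split of fragments between the genes is uncertain: they are 80 bases long, lie in coding sequence across the end of that run, and differ at the single base in capitals. The *Stat5a* window is at chr11:100874944-100875023 on the plus strand and the *Stat5b* window at chr11:100797701-100797780 on the minus strand.
Stat5a: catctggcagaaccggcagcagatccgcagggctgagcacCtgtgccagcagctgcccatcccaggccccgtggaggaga
Stat5b: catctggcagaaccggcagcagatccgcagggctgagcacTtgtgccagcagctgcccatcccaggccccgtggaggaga
Of all words of 100 bases in its transcripts, *Stat5a* shared 3.44% with *Stat5b*, and *Stat5b* shared 4.79% with *Stat5a*. No other pair among the 9 genes shared any. The levels of *Stat5a* and *Stat5b* and their ratio are therefore uncertain to the extent that such fragments were assigned to the wrong gene.

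Some of the genes also overlap a neighbour in that annotation. *Jak3* shares 1362 bases with *Insl3* on the same strand, and *Insl3* measured 3.96 ± 0.324 FPKM in DMSO and 7.31 ± 0.336 FPKM in DADA. *Stat3* and *Stat5a* overlap by 72 bases on opposite strands, and *Stat6* overlaps *Nab2* by 40 bases. *Stat4* shares 29929 bases of its span with the processed transcript Gm28177 on the same strand and 432 with the pseudogene Gm3940 on the other. *Jak1* overlaps the pseudogene Gm12785 by 172 bases on the same strand, and the small nuclear RNA gene Gm24468 by 104 and *Raver2* by 4 on the other. The genes named Gm have no row under their gene IDs among the deposited values, so no level can be given for them. Whether counting used the strand is not given in the sources used here, so fragments from stretches on opposite strands may not have been told apart. On the same strand, the strand could not separate them in any case. The overlaps are of whole gene spans, introns included, and how many fragments came from them was not tested.

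Promoter sequence was read from RefSeq for GRCm38.p6, and all 9 genes matched, with 12 start sites in all and 250 bases before to 50 after each. The letters GAAA, any 2 bases and GAAA again, a core of the element that STAT2 complexes bind in interferon-induced genes, were searched on both strands and occurred at 2 of the 12 start sites, those of *Stat2* and *Stat4*, against 3.44% of all 32851 promoters of that length. Both are shown because they carry this core, written in capitals. *Stat2* rose and *Stat4* did not pass the test, and a part of the core in either result was not tested. In *Stat2* it stands as its reverse complement, at positions -222 to -213 from the start, in chr10:128270251-128270350 on the plus strand. In *Stat4* it lies at positions -97 to -88, in chr1:52008118-52008217 on the plus strand, at 1 of the 2 start sites of that gene. For neither gene were the bases just after the start site found near the beginning of a GENCODE M21 transcript. Whether the mRNA measured here starts at these sites was not tested.
Stat2: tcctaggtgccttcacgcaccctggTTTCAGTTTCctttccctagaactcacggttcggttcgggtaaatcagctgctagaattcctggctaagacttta
Stat4: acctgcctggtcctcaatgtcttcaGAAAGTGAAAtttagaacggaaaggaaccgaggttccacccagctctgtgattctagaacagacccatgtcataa
The STAT motif of TTC and GAA with 3 bases between them was found at 0 of the 12 start sites (8.30% of all promoters), and the form with 4 bases between them at 1, that of *Stat2* (6.95%). A match describes the letters in a window and shows no binding.

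Around the 9 genes, 91 further genes of the pathway were listed by role, of which 74 were tested. The lists were chosen with earlier results of these data known, so the shares below are a description and not an independent test. 9 of these were below 1 FPKM in every DMSO library and passed the filter on low values only through DADA, so they could only be called higher. They are given by their levels and left out of the counts and medians that follow. Of the other 65, 38 rose (58.5%), 14 fell (21.5%) and 13 did not pass the test, with a median log2 difference of 0.21. Over all 10427 tested genes that reached 1 FPKM in both groups, 29.8% were called higher and 35.7% lower, with a median of -0.02. Genes on more than 1 list were counted once in these totals.

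Of 25 receptor chains, 18 were tested, of which 9 rose (50%), 4 fell (22.2%) and 5 did not pass, with a median log2 difference of 0.11. *Il10ra*, the signalling chain for IL-10, rose from 11.1 ± 0.448 to 42.3 ± 0.845 FPKM (log2 difference 1.84, limma adjusted p = 5.20e-11). *Il2ra*, the chain that gives the IL-2 receptor its high affinity, rose from 293 ± 3.19 to 549 ± 7.82 FPKM (log2 difference 0.90, limma adjusted p = 1.35e-10). The chains that fell did so by less: *Ifnar1* of the type I interferon receptor by 0.37 and *Il27ra* by 0.35 on the log2 scale (limma adjusted p = 1.49e-06 and 2.37e-05). The other 2 that fell, named after their values were seen, were *Il15ra* (-0.20) and *Il2rg*, the common gamma chain to which JAK3 binds (267 ± 2.63 to 248 ± 6.40 FPKM, log2 difference -0.11, limma adjusted p = 0.00222). *Jak3* thus rose while the receptor chain that carries it was slightly lower. The others that rose, named after their values were seen, were *Il2rb* (0.74), *Il7r* (0.55), *Il12rb2* (0.48), *Il4ra* (0.33), *Ifngr1* (0.32), *Il12rb1* (0.11) and *Il21r* (0.09). The 5 that did not pass were *Il6st*, *Il10rb*, *Ifnar2*, *Ifngr2* and *Il3ra*.

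Of 19 cytokines that act through these receptors, 10 were tested. *Il10* and *Il2* passed the filter only through DADA, and *Il10* measured 0.249 ± 0.159 FPKM in DMSO and 7.73 ± 0.762 FPKM in DADA, *Il2* 0.538 ± 0.0606 and 1.58 ± 0.379 FPKM. Of the other 8, 4 rose and 4 fell (50% each), with a median log2 difference of -0.29. *Il3* went from 1.79 ± 0.459 to 9.38 ± 0.716 FPKM (log2 difference 1.91, limma adjusted p = 2.13e-07). *Csf2*, which encodes GM-CSF, fell from 83.1 ± 2.07 to 16.4 ± 0.837 FPKM (log2 difference -2.27, limma adjusted p = 3.04e-11), and *Il6* from 10.4 ± 0.719 to 1.84 ± 0.313 FPKM (-2.01, limma adjusted p = 1.72e-08). The others that rose, named after their values were seen, were *Osm* (0.88), *Lif* (0.73) and *Ifng* (0.68). The other 2 that fell, named after their values were seen, were *Il13* (-1.80) and *Il23a* (-1.26). *Il23a* lies next to *Stat2* on chromosome 10 and moved in the opposite direction.

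All 19 inhibitors of the pathway were tested. *Usp18*, which restrains signalling at the type I interferon receptor, passed the filter only through DADA and measured 0.637 ± 0.198 FPKM in DMSO and 30.5 ± 0.883 FPKM in DADA. Of the other 18, 9 rose (50%), 2 fell (11.1%) and 7 did not pass, with a median log2 difference of 0.15. *Socs3*, a STAT3-induced inhibitor of JAK kinases, rose from 5.37 ± 0.481 to 13.8 ± 0.801 FPKM (1.22, limma adjusted p = 6.89e-08). *Sh2b3*, an adaptor that dampens JAK2 signalling, and the phosphatase gene *Ptpn11* fell by 0.34 and 0.13 on the log2 scale (limma adjusted p = 2.71e-05 and 0.00630).

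Genes known to be induced by each STAT were also listed. All 11 genes induced through STAT5 were tested, of which 8 rose (72.7%) and 2 fell (18.2%), and the median log2 difference was 0.33. *Osm* went from 10.4 ± 0.259 to 20.1 ± 1.42 FPKM (0.88, limma adjusted p = 1.16e-07), the survival gene *Bcl2l1* fell from 82.0 ± 1.19 to 53.4 ± 1.65 FPKM (-0.61, limma adjusted p = 2.50e-08), and *Lta* fell by 0.20 on the log2 scale (limma adjusted p = 0.000158). The 1 gene that did not pass, named after its value was seen, was *Cish*, the inhibitor that STAT5 induces, at 89.0 ± 1.68 and 92.0 ± 1.27 FPKM (log2 difference 0.05, limma adjusted p = 0.0862).

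Of 10 genes induced through STAT4 or STAT3, 9 were tested, of which 7 rose (77.8%), 1 fell (11.1%) and 1 did not pass, with a median of 0.64. *Bcl3* rose from 7.57 ± 0.574 to 23.7 ± 0.755 FPKM (1.53, limma adjusted p = 2.72e-09) and *Furin* from 20.3 ± 1.08 to 53.4 ± 1.80 FPKM (1.36, limma adjusted p = 1.62e-09). *Il18rap*, a chain of the IL-18 receptor, fell by 0.66 (limma adjusted p = 9.72e-07), and *Il18r1*, its partner chain, was the gene that did not pass (-0.11, limma adjusted p = 0.0723). Of 6 genes induced through STAT6, 5 were tested, of which 4 rose (80.0%) and 1 fell (20.0%), with a median of 0.22. *Il24* rose from 2.09 ± 0.222 to 9.12 ± 0.491 FPKM (1.71, limma adjusted p = 7.36e-09), *Il4ra* rose by 0.33, and *Gata3*, the transcription factor of type 2 responses, fell from 4.38 ± 0.0982 to 2.20 ± 0.221 FPKM (-0.75, limma adjusted p = 1.75e-06).

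All 12 targets of STAT2 and IRF9 in the type I interferon response entered the test, but 7 of them (*Ifit1*, *Ifit3*, *Oas1a*, *Oasl1*, *Rsad2*, *Usp18* and *Ifi44*) were below 1 FPKM in every DMSO library and passed the filter only through DADA. They measured 0.0187 to 0.637 FPKM on average in DMSO and 1.70 to 30.5 FPKM in DADA. The other 5, *Irf7*, *Irf9*, *Isg15*, *Isg20* and *Mx1*, rose, by 1.25 to 5.16 on the log2 scale. *Isg15* went from 3.16 ± 0.343 to 146.9 ± 7.68 FPKM (5.16, limma adjusted p = 3.78e-12). *Irf9* itself, the DNA-binding partner of STAT2, went from 11.98 ± 0.742 to 29.8 ± 0.883 FPKM (1.25, limma adjusted p = 5.22e-09). Of the genes of the receptor that feeds this step, *Ifnar1* fell and *Ifnar2* did not pass the test (log2 difference -0.07, limma adjusted p = 0.215).

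**Figure D4:**
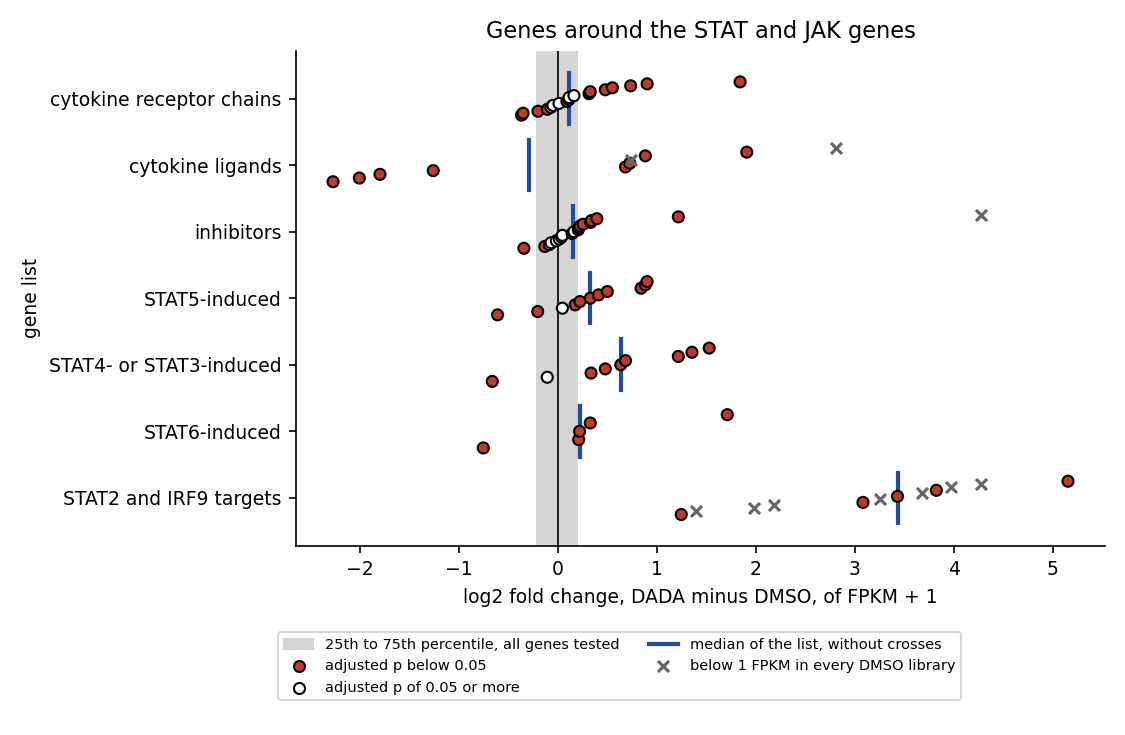
Difference between DADA and DMSO on the log2(FPKM + 1) scale (horizontal axis) for each tested gene of 7 lists around the STAT and JAK genes, with open circles for genes that did not pass the test grey crosses for genes below 1 FPKM in every DMSO library, and a blue line at the median of the list without them. The grey band holds the 25th to 75th percentiles of all genes tested (-0.21 to 0.20), and 5 STAT2 and IRF9 targets that were detected in both groups lie between 1.25 and 5.16.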

How the data were processed

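RNA-seq of 8 libraries of mouse splenic CD8+ T cells was analysed, 4 treated with DMSO and 4 with DADA, grouped by title. The values deposited by the authors are FPKM for each gene in each library, and they were used unchanged. The submitters' processing notes name CASAVA 1.8.2, FastQC 0.11.9, HISAT2 2.0.5, StringTie 1.3.3, Picard 1.41 and SAMtools 0.1.18, and list the builds GRCh38 and GRCm39 without saying which served what. The labels and the methods name different library kits. Sequences came from RefSeq GRCm38.p6 and GENCODE M21, and their coordinates were not joined with the values.

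Genes with at least 1 FPKM in at least 4 libraries were tested (10666) on log2(FPKM + 1) with limma 3.58.1 in R 4.3.3 (1 term for treatment, eBayes with trend, Benjamini-Hochberg adjustment), and genes with an adjusted p below 0.05 were called. A fold change on this scale understates that of low genes. The procedure was tested on simulated data with independent normal noise and far fewer changed genes than were called here. That test does not give its error rate in these data. Depth was estimated from single-transcript genes, where only 33.3% to 40.8% of low values lay within 0.1 of a whole number of fragments, so no count test was run.

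The members and the gene lists were chosen with earlier results of these data known. Genes named are the 9 members, from each list the 2 called genes with the largest rise and the 2 with the largest fall, and the 3 genes most like the member of largest change, and any other gene is said to be named after its value was seen or is given with its list. Genes below 1 FPKM in every library of 1 group were left out of the list counts, a choice made after seeing the data. Alternatives changed the pseudocount, filter, scaling, trend, replicate block and libraries included.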

Additional observations from a re-analysis of the deposited data

Results flagged for a closer look

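Of 28 sets of 4 libraries examined for a library far from the others, 1 stood out: in DADA, library 1 had 57.4 FPKM of *Stat4* where the other 3 had 60.1 to 60.4, and its gap to the nearest of them was 0.877 of the whole range. Chance marks about 1 in 20 such sets. Without that library the log2 difference of *Stat4* was 0.08 (limma adjusted p = 0.131), and the gene did not pass the test with or without it.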

How the results depend on the processing

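Across all alternatives, 6 to 7 of the 9 genes were called higher and 1 lower. The 7th was *Stat4*, whose log2 difference became 0.10 under quantile normalization (limma adjusted p = 0.0407), within a range of 0.03 to 0.10 over the alternatives (adjusted p 0.0407 to 0.46). The sign of *Stat6*, which passed under none of them, varied with the setting (-0.04 to 0.02). The ranges were 1.36 to 1.44 for *Stat2*, 1.11 to 1.16 for *Stat3*, 0.84 to 0.92 for *Jak3* and -0.18 to -0.12 for *Jak1*. Leaving out 1 library at a time changed no call among the 9 genes, but ended that of the ratio of *Stat5a* to *Stat5b* without DMSO replicate 1 (exact p = 0.0571, with log2 differences of -0.13 to -0.10 over the 8 libraries left out). In the lists, the number of inhibitors that fell was 4 under quantile normalization, that of STAT4 or STAT3 genes was 2 without DADA replicate 3, and that of STAT6 genes was 2 with no filter and 0 with a mean of at least 5 FPKM, where fewer genes were tested. Of the 12 STAT2 and IRF9 targets, 8 were tested and higher with a mean of at least 5 FPKM. Leaving out genes below 1 FPKM in all libraries of 1 group, chosen after seeing the data, left 5 of the 12 targets higher. Over all lists it left 38 higher and 14 lower, where 47 and 14 had been called.

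Over all genes the split of higher to lower calls was 3296 to 3768, and it was 3604 to 3380 with equal totals, 3353 to 3718 with median-ratio scaling and 3005 to 4116 with quantile normalization. Same-numbered libraries of the groups did not deviate together (correlations of -0.12 to 0.10, against -0.27 to 0.13 for libraries of different numbers). So few correlations cannot show whether same-numbered cultures shared a source. A replicate block gave 3251 higher and 3744 lower calls and changed no call among the 9 genes. For the ratios, the replicate block left the log2 differences at -0.11 for *Stat5a* over *Stat5b*, 0.83 for *Stat3* over *Stat5b*, -1.06 for *Jak1* over *Jak3* and -0.29 for *Jak1* over *Jak2*, with an exact p of 0.125, the smallest that 4 pairs can give, which says nothing of their stability. Depth is an estimate, so counting error could not be given for single values.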

Other observations

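The 3 tested genes whose log2(FPKM + 1) followed *Stat2* most closely over the 8 libraries were *Itga7* (Pearson r = 0.99999), *Ero1a* (0.99978) and *Bnip3l* (0.99975), with log2 differences between DADA and DMSO of 2.86, 2.03 and 2.25. The libraries form 2 separate groups, so such values mainly restate that both genes differ between the groups, and they are given as a description.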
